A study of Arabidopsis thaliana with 12 samples.

Results

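RNA sequencing of Arabidopsis thaliana seedlings was used to ask which transcripts responded to heat differently in 2 genotypes, and whether each such difference was present at 22 °C or appeared after heat. The quantity is the genotype by heat interaction. It is the log2 change with heat in hd2b hd2c minus the log2 change with heat in WT, which equals the genotype difference after heat minus the genotype difference at 22 °C. It was tested for every gene in 1 fit of all 12 libraries, and 68 of 20232 genes tested were called, a background of 0.336% (edgeR's quasi-likelihood test, adjusted p under 0.05). The 4 groups were hd2b hd2c with heat, WT with heat, hd2b hd2c at 22 °C and WT at 22 °C, with 3 libraries each. Per the labels, all seedlings were 6 days old and grown on agar with sucrose under long days at 22 °C. Heat was 44 °C for 3 h, and the genotype is given as an hd2b hd2c knockout with no allele named. The labels do not say whether the 3 libraries of a group are of separate cultures. The spread that p-values measure is that between these libraries and may be technical. Libraries were of whole seedlings, in which fewer cells of a type and less RNA per cell cannot be told apart.

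HD2B and HD2C encode plant-specific histone deacetylases that act in the nucleus and nucleolus and are known to repress genes. Heat is read in plants by heat stress transcription factors, which switch on chaperone genes. A separate, faster set of genes for ethylene response factors, zinc finger factors and calcium-binding proteins responds within minutes to wounding, touch and many other stresses. A transcript can show an interaction because the genotypes start from different levels at 22 °C, because they end at different levels after heat, or both.

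Libraries held 7737285 to 24030931 counts. The second hd2b hd2c heat library had the fewest and stood apart. Ribosomal RNA genes took 11.2% of its counts (0.734% to 5.02% in the other 11), and it had a mean Spearman correlation of 0.961 with the rest of its group (0.973 to 0.99 in the others). Counts that rest on it are given with and without it. The HD2C transcript was higher, not lower, in the libraries labelled hd2b hd2c, which goes against a loss of that transcript but not against a lesion that leaves part of it. The groups are therefore called by their label, on which every direction given for hd2b hd2c rests. Summed marker genes of vascular, endodermal and stomatal cells overlapped between genotypes at each temperature. The epidermis and meristem markers, of which 3 of 5 were tested, summed to 181 to 201 CPM (counts scaled to a common library size) in hd2b hd2c and 191 to 214 CPM in WT after heat, and 229 to 257 CPM in hd2b hd2c and 208 to 227 CPM in WT at 22 °C, and WUS of the shoot meristem had 1 count in all. The 7 root hair markers summed to 1.54 to 3.66 CPM in hd2b hd2c and 0.845 to 4.06 CPM in WT after heat, and to 9.46 to 12.6 CPM in hd2b hd2c and 15.1 to 19.9 CPM in WT at 22 °C. No root hair marker was called for the interaction by edgeR, DESeq2 or limma-voom, and 0 of 7 had an unadjusted p under 0.05. Of the 3 epidermis and meristem markers tested 0 were called by edgeR, DESeq2 or limma-voom and 1 had an unadjusted p under 0.05, while PDF1 of the epidermis was called lower by edgeR without the second hd2b hd2c heat library (−0.59, adjusted p 0.0334). The part of root hair and epidermal cells in the results at 22 °C was not tested.

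The interaction was higher in 30 genes (0.148% of genes tested) and lower in 38 (0.188%), and 19 and 34 of these were at least 2-fold. At an unadjusted p under 0.05 there were 1799 genes (8.89% of genes tested). The genotype contrasts themselves called 559 genes after heat (2.76%), of which 321 (1.59%) were higher and 238 (1.18%) lower in hd2b hd2c. At 22 °C they called 536 genes (2.65%), of which 198 (0.979%) were higher and 338 (1.67%) lower. Of the 68 interaction genes, 41 had a called genotype difference at 22 °C only and 22 had one after heat only. A further 2 had both with the same sign (HD2B and CBF2), 2 had both with opposite signs (ERF6 and UPL2), and 1 had neither (ABCG34, a transporter gene). The contrasts that define these classes are parts of the interaction, so the classes describe it and are no further test.

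With all 12 libraries, 31 of the 38 genes with a lower interaction had a genotype difference at 22 °C only and 4 after heat only. That split rests on the second hd2b hd2c heat library, without which 63 genes with a lower interaction were called at 22 °C only and 67 after heat only. Over both directions the split was then 104 and 172, and by DESeq2 it was 82 and 92. In 37 of the 38 genes called lower with all libraries, all 3 hd2b hd2c libraries lay above all 3 WT libraries at 22 °C, where 11.7% of all genes tested did, and in 20 all lay below WT after heat (8.66% of all genes). Their median genotype difference was −0.41 after heat and 1.29 at 22 °C on the log2 scale, so most were higher in hd2b hd2c before heat and lay near or below WT after it. Of the 30 genes with a higher interaction 10 had a genotype difference at 22 °C only and 18 after heat only (41 and 105 without the second hd2b hd2c heat library). With a trend by transcript length removed, an alternative added after the data were seen, 10 genes were called higher. Of those 10, 6 had a genotype difference at 22 °C only and 4 after heat only, so this split rests on that setting. In 23 of the 30, all hd2b hd2c libraries lay above WT after heat (8.97% of all genes), and in 18 all lay below WT at 22 °C (13.7% of all genes). Their median genotype difference was 0.77 after heat and −0.36 at 22 °C. Both sets were picked by the interaction in these same libraries, so the counts of non-overlap describe them and are no further test. All 68 kept the sign of the interaction, and every called genotype difference among them kept its sign, under median-ratio, upper-quartile and library-total scaling.

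**Figure D1:**
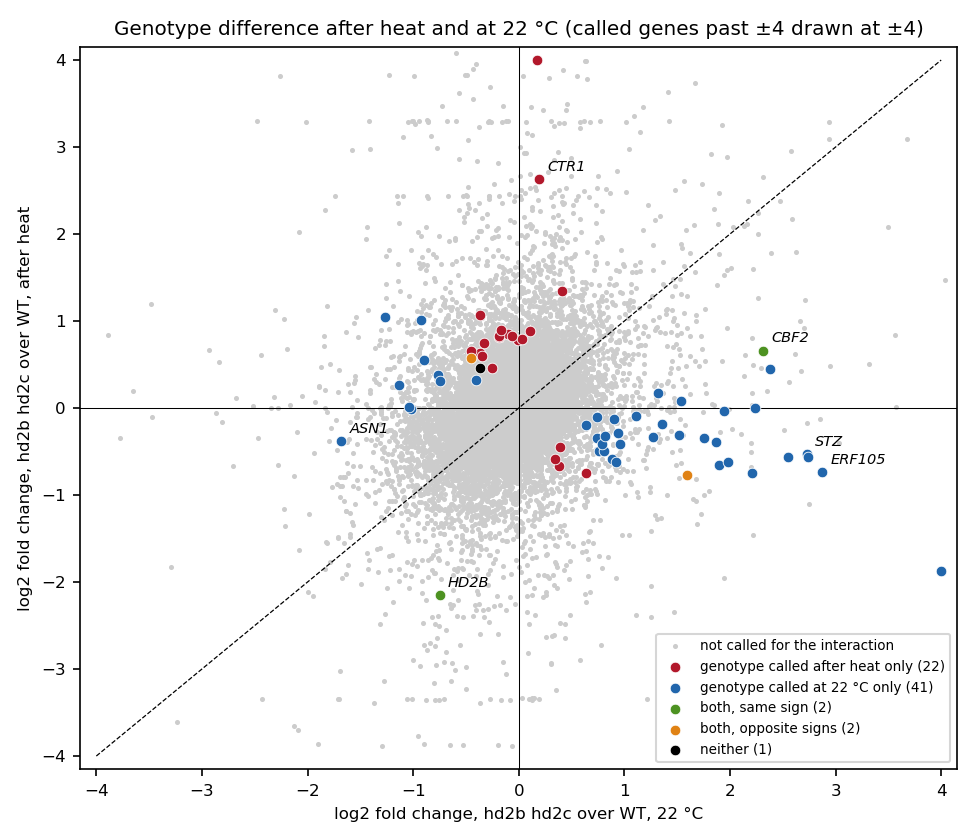
Genotype difference (log2 fold change, hd2b hd2c over WT) after heat on the y axis and at 22 °C on the x axis, one point per gene. Colours give the 68 called genes by which genotype difference was called, grey points are genes not called (those past the axes are not drawn) and the dashed line marks no interaction. The 41 blue genes spread along the x axis, mostly to the right, and most of the 22 red genes lie somewhat above the centre. Only CTR1 (2.63) and AT3G23470 (7.10, drawn at the limit) lie high on the y axis.

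Heat changed the level of most of these transcripts in WT. Among genes with a lower interaction 16 rose in both genotypes, 15 rose in WT and were not called in hd2b hd2c, 4 rose in WT and fell in hd2b hd2c, and 3 were not called in WT and fell in hd2b hd2c. Among genes with a higher interaction 10 fell in WT and were not called in hd2b hd2c, 9 fell in both, 5 were not called in WT and rose in hd2b hd2c, 4 rose in both, and 2 fell in WT and rose in hd2b hd2c. Heat was called for 61.5% of all genes in hd2b hd2c (29.9% higher, 31.5% lower) and 65.8% in WT (31% higher, 34.8% lower). These heat directions rest on the scaling. With TMM factors (trimmed mean of M values) dropped and libraries scaled by their totals, the median heat change of all genes was −1.56 in hd2b hd2c and −1.67 in WT, against −0.12 and −0.14 with TMM, and 13 of 43 called heat changes in hd2b hd2c and 16 of 60 in WT turned sign.

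HD2B (AT5G22650, chromosome 5) differed between genotypes at both temperatures, and more after heat. It had 18.2, 14 and 23.5 CPM in hd2b hd2c with heat, against 86.2, 80.7 and 90.6 CPM in WT with heat. At 22 °C it had 21.7, 22.8 and 26.9 CPM in hd2b hd2c, against 40.3, 42.9 and 36.9 CPM in WT. The groups did not overlap at either temperature, and WT with heat stood highest. The log2 interaction was −1.40 (SE 0.195, adjusted p 0.000928 by edgeR with Benjamini-Hochberg adjustment), from differences of −2.15 after heat and −0.75 at 22 °C. HD2B overlaps the annotated gene AT5G22660, and how the counting treated strand is not given in the sources used here.

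HD2C (AT5G03740, chromosome 5) was higher in hd2b hd2c by a similar log2 amount at both temperatures, 1.12 after heat and 1.40 at 22 °C. Its interaction of −0.27 (SE 0.158) did not pass (adjusted p 0.659 by edgeR). AGO4, which binds the small RNAs of RNA-directed DNA methylation and is named in the study's title, had 174 ± 44.8 CPM in hd2b hd2c and 176 ± 15.2 CPM in WT after heat, and 69.4 ± 8.27 CPM in hd2b hd2c and 80.1 ± 7.97 CPM in WT at 22 °C (SD, n = 3 each). Its interaction was 0.18 (SE 0.206, adjusted p 0.864 by edgeR).

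The smallest adjusted p for the interaction was in CTR1 (AT5G03730, chromosome 5), a Raf-like kinase that represses ethylene signalling and the tested gene next to HD2C. It had 215, 226 and 240 CPM in hd2b hd2c with heat, against 36.1, 40.9 and 33.3 CPM in WT with heat. At 22 °C the values were 48.0, 46.6 and 43.7 CPM in hd2b hd2c, against 42.6, 36.8 and 41.5 CPM in WT. The heated hd2b hd2c libraries thus stood far above the other 9, which lay close together. The interaction was 2.43 (SE 0.16, adjusted p 4.17e-09 by edgeR), with a genotype difference of 2.63 after heat (adjusted p 6.69e-13) and 0.19 at 22 °C (adjusted p 0.488). CTR1 was called under every alternative tried.

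Other tested genes around HD2B and HD2C were not called. HSFA3, which lies beyond CTR1 and encodes a factor that binds heat shock elements, had 20.2, 11.0 and 22.9 CPM in hd2b hd2c with heat, against 4.30, 6.27 and 4.52 CPM in WT with heat. Its groups did not overlap after heat and did at 22 °C, where hd2b hd2c had 3.76, 6.68 and 5.17 CPM and WT 2.93, 4.36 and 4.25 CPM. Its interaction of 1.45 (SE 0.369) did not pass with all libraries (adjusted p 0.0941 by edgeR). It passed with all libraries when no filter on low counts was used (1.44, adjusted p 0.006 by edgeR) and by DESeq2 (1.44, adjusted p 0.0365), and by edgeR without the second hd2b hd2c heat library (1.65, adjusted p 0.00617). AT5G03750, on the far side of HD2C and annotated as an E3 ligase, was higher in hd2b hd2c at both temperatures and its interaction of −0.75 (SE 0.683) turned to 0.85 under limma-voom. Summed over libraries it had 145 counts in hd2b hd2c and 4 in WT after heat. At 22 °C it had 30 in hd2b hd2c and 0 in WT, so the fitted interaction is no bound. AT5G03700, ATCSLA09 and KDTA near HD2C had interactions of 0.83, −0.37 and −0.12, and 6 genes around HD2B lay between −0.57 (AT5G22690) and 0.79 (AT5G22700).

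**Figure D2:**
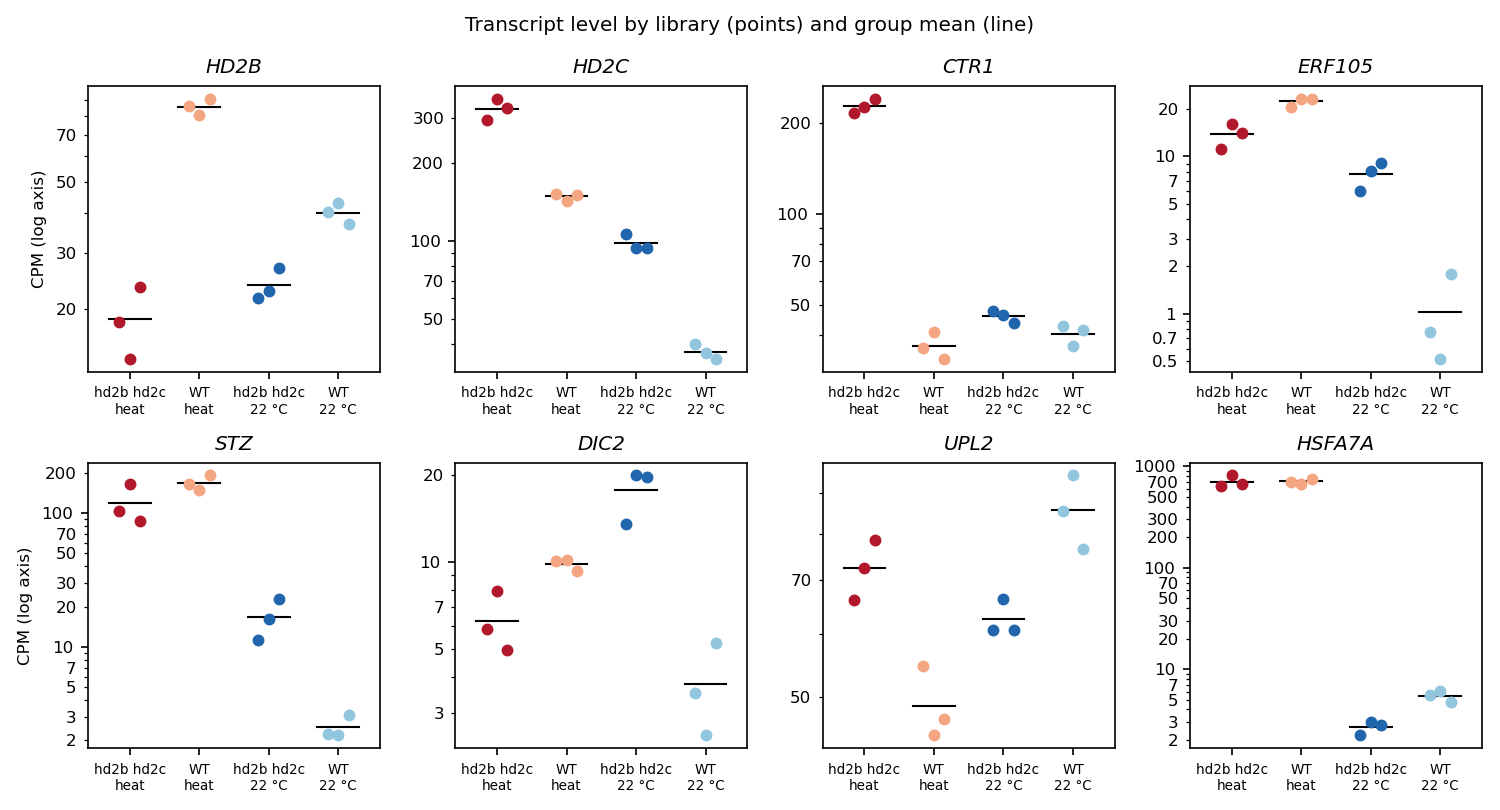
CPM in each library (points) and the group mean (line) on log axes for 8 genes, in the order hd2b hd2c heat, WT heat, hd2b hd2c 22 °C, WT 22 °C. CTR1 is high only in the heated hd2b hd2c libraries (215 to 240 CPM), ERF105, STZ and DIC2 are lowest in WT at 22 °C, and HSFA7A differs between genotypes at 22 °C and not after heat.

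The rapid stress and touch list held more called genes than any other list. Of 29 members tested 9 were called lower (0.188% of all genes tested were) and 0 higher (20 lower and 0 higher at an unadjusted p under 0.05, 15 lower by DESeq2 and 10 by limma-voom), and 27 had a negative value. The list median was −1.25, against 0.01 for all genes tested. At 22 °C 15 members were called higher in hd2b hd2c (0.979% of all genes were) and 0 lower, with a median genotype difference of 0.76, and after heat 2 were called higher and 1 lower, with a median of −0.34. The difference at 22 °C was thus the larger for the list. The list was drawn up with earlier results of these data known, so it is not independent evidence of its direction. Without the second hd2b hd2c heat library 13 members were called lower and the median was −1.21.

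ERF105 (AT5G51190, chromosome 5), an ethylene response factor gene, had 11.2, 16.2 and 14 CPM in hd2b hd2c with heat, against 20.7, 23.2 and 23.2 CPM in WT with heat. Without heat, at 22 °C, it had 6.05, 8.12 and 9.13 CPM in hd2b hd2c, against 0.764, 0.516 and 1.80 CPM in WT. The genotypes did not overlap at either temperature and stood in opposite order. The interaction was −3.61 (SE 0.37, adjusted p 1.44e-05 by edgeR), the difference at 22 °C was 2.87 (adjusted p 1.28e-06), and that after heat did not pass with all libraries (−0.74, adjusted p 0.0996). ERF105 overlaps the annotated gene AT5G51180.

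STZ (AT1G27730, chromosome 1), a zinc finger repressor of the stress response, had 104, 165 and 87.4 CPM in hd2b hd2c with heat, against 165, 148 and 191 CPM in WT with heat. Unheated at 22 °C, it had 11.3, 16.1 and 22.8 CPM in hd2b hd2c, against 2.24, 2.18 and 3.11 CPM in WT. The rise with heat kept its sign in both genotypes under every scaling tried, and hd2b hd2c started from the higher level. The interaction was −3.25 (SE 0.382, adjusted p 0.00199 by edgeR), with a called difference of 2.73 at 22 °C and −0.53 after heat (adjusted p 0.296).

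CAF1a (AT3G44260, chromosome 3) encodes a deadenylase that shortens the poly(A) tails of messenger RNA. It had 17.7, 35.7 and 15.3 CPM in hd2b hd2c with heat, against 28.5, 24.2 and 40.0 CPM in WT with heat. Levels at 22 °C were 25.4, 34.2 and 32.1 CPM in hd2b hd2c, against 3.03, 5.16 and 7.68 CPM in WT. Only WT at 22 °C stood apart. The interaction was −3.10 (SE 0.484, adjusted p 0.0171 by edgeR), and its relative CAF1b, named after its values were seen, had −1.54 (SE 0.338, adjusted p 0.0466).

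ERF6 (AT4G17490, chromosome 4), another ethylene response factor gene, was called at both temperatures with opposite signs. It had 21.4, 41.2 and 24.6 CPM in hd2b hd2c with heat, against 43.2, 46.4 and 51.5 CPM in WT with heat, and 7.45, 10.1 and 12.7 CPM in hd2b hd2c at 22 °C, against 3.51, 2.47 and 3.93 CPM in WT at 22 °C. The interaction was −2.36 (SE 0.308, adjusted p 0.000603 by edgeR), from −0.77 after heat (adjusted p 0.0484) and 1.59 at 22 °C (adjusted p 0.000319). The second hd2b hd2c heat library was the highest of its group for ERF6, STZ, ERF105 and CAF1a, and without it the interactions were −2.61, −3.54, −3.70 and −3.45. The difference after heat then also passed by edgeR for STZ (−0.80, adjusted p 0.0386) and ERF105 (−0.82, adjusted p 0.0369). Both still passed at 22 °C, with the opposite sign. After heat CAF1b passed too (−0.83, adjusted p 0.026) and CAF1a did not (−0.89, adjusted p 0.087).

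The other called members of the list were CBF2, MYB77, SZF1 and ERF104, named after their values were seen. CBF2, a cold response factor gene, was higher in hd2b hd2c at both temperatures, by 0.66 after heat and 2.31 at 22 °C, with an interaction of −1.65 (SE 0.253). MYB77, a MYB factor gene, SZF1, a zinc finger gene of the salt response, and ERF104 had interactions of −1.54, −1.59 and −1.25. With all libraries these 3 were called at 22 °C only. Without the second hd2b hd2c heat library ERF104 was also called after heat (−0.51, adjusted p 0.0345 by edgeR) and MYB77 was not (−0.08, adjusted p 0.864). SZF1 was then no longer called for the interaction by edgeR. DREB1A, of the same family as CBF2, had 0.01 (adjusted p 0.998 by edgeR), and RHL41, a zinc finger gene related to STZ, had −0.10 (adjusted p 0.947). The touch genes TCH2, TCH3 and TCH4 had values of −1.05, −1.31 and −1.75 and did not pass by edgeR with all libraries. They passed by DESeq2 (adjusted p 0.0461, 0.025 and 0.00774) and not by limma-voom. By edgeR without the second hd2b hd2c heat library TCH2 was called lower (−0.90, adjusted p 0.047), and TCH3 and TCH4 were not called.

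Further genes with a lower interaction lay outside the list. DIC2 (AT4G24570, chromosome 4), a mitochondrial dicarboxylate carrier, had 5.89, 7.93 and 4.97 CPM in hd2b hd2c with heat, against 10.1, 10.2 and 9.30 CPM in WT with heat, and 13.5, 19.9 and 19.7 CPM in hd2b hd2c at 22 °C, against 3.53, 2.52 and 5.27 CPM in WT at 22 °C. Its interaction was −2.95 (SE 0.336, adjusted p 6.11e-05 by edgeR), and all 3 hd2b hd2c libraries lay below WT after heat and above it at 22 °C. UCP5, another mitochondrial carrier gene, named after its values were seen, had −1.04 (adjusted p 0.0499).

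AT4G27280 (chromosome 4), annotated as a calcium-binding EF-hand protein, averaged 57.2 ± 18.9 CPM in hd2b hd2c and 87.5 ± 3.22 CPM in WT after heat, and 27.1 ± 5.23 CPM in hd2b hd2c and 7.19 ± 2.29 CPM in WT at 22 °C (SD, n = 3 each). Its interaction was −2.56 (SE 0.297, adjusted p 0.000442 by edgeR). WRKY70 (AT3G56400, chromosome 3), a defence transcription factor, averaged 6.35 ± 1.11 CPM in hd2b hd2c and 4.75 ± 1.25 CPM in WT after heat, and 6.62 ± 1.13 CPM in hd2b hd2c and 1.31 ± 0.41 CPM in WT at 22 °C. For WRKY70 (interaction −1.92, SE 0.396, adjusted p 0.0284) WT at 22 °C was the group that stood apart. SIB1 (AT3G56710, chromosome 3), which binds plastid sigma factors and WRKY33, was highest in WT with heat, at 7.22 ± 1.08 CPM, and had −2.59 (SE 0.546, adjusted p 0.0355).

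ACS6 (AT4G11280, chromosome 4), which makes the precursor of ethylene, differed between genotypes at 22 °C only. It had 119, 106 and 106 CPM in hd2b hd2c with heat, against 99.8, 95.3 and 120 CPM in WT with heat. At 22 °C it had 19.6, 30.8 and 43.3 CPM in hd2b hd2c, against 9.96, 11.2 and 11.3 CPM in WT. The groups overlapped after heat and not at 22 °C, and the interaction was −1.46 (SE 0.267, adjusted p 0.0171 by edgeR). Without the second hd2b hd2c heat library the ACS6 interaction was not called by edgeR. The uncharacterised genes AT2G25510 (chromosome 2) and AT5G42530 (chromosome 5) also overlapped between genotypes after heat and not at 22 °C, with interactions of −2.24 (SE 0.337) and −2.09 (SE 0.348).

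Neighbouring genes of a cluster on chromosome 1 for Toll/interleukin receptor (TIR) domain proteins were called together. AT1G72910 averaged 2.21 ± 0.611 CPM in hd2b hd2c and 2.46 ± 0.434 CPM in WT after heat, and 10.1 ± 2.95 CPM in hd2b hd2c and 2.62 ± 0.465 CPM in WT at 22 °C (SD, n = 3 each). Its interaction was −1.97 (SE 0.409, adjusted p 0.0306 by edgeR) and that of AT1G72920 was −2.26 (SE 0.471, adjusted p 0.0321). The next genes, TIR and AT1G72940, named after their values were seen, had −1.37 and −1.39. These copies resemble each other, and how reads with several alignments were counted is not given in the sources used here.

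The lowest fitted interaction, in AT2G32200, annotated as a cysteine-rich transmembrane protein and chosen after its values were seen, rests on few reads. Summed over libraries it had 22 counts in hd2b hd2c and 76 in WT after heat, and 18 in hd2b hd2c and 0 in WT at 22 °C. At 22 °C it was at least 5.48-fold higher in hd2b hd2c against a floor of 3 counts over the WT group, and the fitted −6.92 is no bound.

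With all 12 libraries, only 4 genes with a lower interaction were called after heat and not at 22 °C. HAT2 (AT5G47370, chromosome 5), an auxin-induced homeodomain gene, had 58.4, 61.9 and 72.3 CPM in hd2b hd2c with heat, against 89.6, 92.5 and 81.7 CPM in WT with heat. Without heat, at 22 °C, it had 26.4, 25 and 22.8 CPM in hd2b hd2c, against 18.3, 17.4 and 20.9 CPM in WT. The groups did not overlap at either temperature, though the difference at 22 °C did not pass (0.39, adjusted p 0.0857 by edgeR), and the interaction was −0.84 (SE 0.167, adjusted p 0.0238). Without the second hd2b hd2c heat library the HAT2 difference at 22 °C passed too (0.39, adjusted p 0.0293 by edgeR). The other 3, named after their values were seen, were LSU2 of the low sulphur response (−1.06), the RING ubiquitin ligase gene RDUF2 (−0.92) and AT1G72940.

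The 300 bases upstream of the annotated starts were read from the RefSeq TAIR10.1 reference for 38 genes with a lower and 28 with a higher interaction. They were searched on both strands for the W-box (TTGACC or TTGACT, bound by WRKY factors), the core heat shock element (GAANNTTC, bound by heat stress transcription factors), the G-box (CACGTG), the rapid stress response element (CGCGTT) and the evening element (AAAATATCT). A W-box was found in 19 windows of genes with a lower interaction (50% of them), in 7 with a higher one (25%) and in 31.8% of all 20070 windows. The heat shock element was found in 23.7%, 17.9% and 11.1%, the G-box in 5.26%, 3.57% and 7.90%, and the rapid stress response element in 5.26%, 0% and 3.25%. The evening element was found in 0% of the windows with a lower interaction, in 3.57% with a higher one and in 2.96% of all. A match describes the window and shows no binding. Reads were aligned to a release named TAIR10, so the positions are those of the reference. The window of DIC2 is shown as that of a gene that starts high at 22 °C in hd2b hd2c, and that of HSFA7A as that of a heat factor gene that starts low, with matches in capitals.
DIC2, chr4:12686159-12686458, plus strand: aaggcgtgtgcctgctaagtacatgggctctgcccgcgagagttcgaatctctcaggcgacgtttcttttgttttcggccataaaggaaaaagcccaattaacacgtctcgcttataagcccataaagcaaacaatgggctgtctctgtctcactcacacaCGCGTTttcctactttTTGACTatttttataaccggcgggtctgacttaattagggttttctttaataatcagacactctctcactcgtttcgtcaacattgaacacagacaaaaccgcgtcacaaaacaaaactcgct
HSFA7A, chr3:19264841-19265140, plus strand: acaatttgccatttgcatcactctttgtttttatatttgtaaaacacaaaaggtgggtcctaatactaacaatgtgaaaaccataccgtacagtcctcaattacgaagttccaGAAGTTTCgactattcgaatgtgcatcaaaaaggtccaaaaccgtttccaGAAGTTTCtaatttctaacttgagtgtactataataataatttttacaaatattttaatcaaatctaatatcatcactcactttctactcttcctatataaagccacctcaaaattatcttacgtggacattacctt
The DIC2 window holds a rapid stress response element and a W-box, and the HSFA7A window the same 8 bases of the heat shock element at 2 places.

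HSFA7A (AT3G51910, chromosome 3), which encodes a heat stress transcription factor, took the reverse course to the rapid stress genes. It had 641, 811 and 663 CPM in hd2b hd2c with heat, against 705, 668 and 750 CPM in WT with heat. Unheated at 22 °C, it had 2.22, 2.99 and 2.81 CPM in hd2b hd2c, against 5.59, 6.08 and 4.74 CPM in WT. The genotypes overlapped after heat and not at 22 °C. The interaction was 1.01 (SE 0.208, adjusted p 0.0284 by edgeR), with a genotype difference of −0.01 after heat (adjusted p 0.993) and −1.02 at 22 °C (adjusted p 0.000699).

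ASN1 (AT3G47340, chromosome 3), an asparagine synthetase known to be induced by darkness and low sugar, was also lower in hd2b hd2c at 22 °C. It had 124, 137 and 90.2 CPM in hd2b hd2c with heat, against 150, 146 and 159 CPM in WT with heat. Levels at 22 °C were 1.79, 2.1 and 2.07 CPM in hd2b hd2c, against 6.38, 6.42 and 6.40 CPM in WT. The interaction was 1.30 (SE 0.204, adjusted p 0.00352 by edgeR), from −1.68 at 22 °C (adjusted p 9.71e-07), and the rise with heat kept its sign in both genotypes under every scaling tried. ASN1 overlaps the annotated gene AT3G47341.

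GI (AT1G22770, chromosome 1), a clock gene that links the day cycle to flowering, had 150, 153 and 146 CPM in hd2b hd2c with heat, against 119, 119 and 121 CPM in WT with heat. At 22 °C it had 39.1, 41.8 and 45.0 CPM in hd2b hd2c, against 53.4, 55.5 and 56.9 CPM in WT. Libraries of each group lay close together and the genotypes changed order with heat. The interaction was 0.71 (SE 0.145, adjusted p 0.0273 by edgeR), from −0.40 at 22 °C (adjusted p 0.0353) and 0.32 after heat (adjusted p 0.101). GI was the only clock gene called of 17 tested (6 higher and 0 lower at an unadjusted p under 0.05, 2 by DESeq2 and 1 by limma-voom). Of all genes tested 8.89% had an unadjusted p under 0.05 in either direction. The list median was 0.55 and 2 of 17 were negative. At 22 °C 3 clock genes were called lower in hd2b hd2c (median −0.36), and after heat 1 was called higher (median 0.15). PRR9, PRR7, TOC1 and ELF3 had interactions of 2.04, 0.72, 0.69 and 0.82 with adjusted p of 0.359, 0.442, 0.0711 and 0.163 by edgeR, and without the second hd2b hd2c heat library GI, TOC1, ELF3 and PRR7 were called.

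RPP4 (AT4G16860, chromosome 4), a resistance gene against downy mildew, had 70.7, 43.9 and 79.6 CPM in hd2b hd2c with heat, against 57.5, 46.7 and 48.9 CPM in WT with heat. Without heat, at 22 °C, it had 27.7, 30.4 and 33.6 CPM in hd2b hd2c, against 51.5, 55.3 and 48.8 CPM in WT, so that hd2b hd2c at 22 °C stood below the other 3 groups. The interaction was 1.14 (SE 0.213, adjusted p 0.0164 by edgeR). The neighbouring feature AT4G16870.1, not matched to the reference and named after its values were seen, had 1.01 (adjusted p 0.0238) and was called after heat only. RPP4 belongs to a cluster of similar genes, between which reads can be split.

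Of the remaining genes named by size that started low in hd2b hd2c, AT4G38060 (CCI2, chromosome 4) averaged 13.7 ± 3.10 CPM in hd2b hd2c and 9.62 ± 2.99 CPM in WT after heat, and 7.02 ± 1.36 CPM in hd2b hd2c and 13.2 ± 2.76 CPM in WT at 22 °C (SD, n = 3 each). The non-coding AT3G13277 (chromosome 3) averaged 11.8 ± 1.59 CPM in hd2b hd2c and 9.85 ± 0.429 CPM in WT after heat, and 3.41 ± 0.446 CPM in hd2b hd2c and 7.50 ± 1.14 CPM in WT at 22 °C. Their interactions were 1.45 (SE 0.318, adjusted p 0.0466) and 1.40 (SE 0.278, adjusted p 0.0238) by edgeR. AT1G74250 (chromosome 1), annotated as a DNAJ protein, had 1.94 (SE 0.418, adjusted p 0.0426). AT2G12490.1 (chromosome 2), a feature not matched to the reference, had 2.32 (SE 0.428, adjusted p 0.0149). Each lay below 3 CPM in all heated libraries. CHR4, a chromatin remodeller gene named after its values were seen, averaged 15.9 ± 2.71 CPM in hd2b hd2c and 16.3 ± 2.50 CPM in WT after heat, and 28.1 ± 2.77 CPM in hd2b hd2c and 57.9 ± 12.2 CPM in WT at 22 °C, an interaction of 1.05.

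Genes with a higher interaction and a genotype difference after heat included several that encode very large proteins. UPL2 (AT1G70320, chromosome 1), a HECT ubiquitin ligase gene named after its values were seen, had 66.2, 72.6 and 78.7 CPM in hd2b hd2c with heat, against 54.7, 44.7 and 46.8 CPM in WT with heat, and 60.7, 66.3 and 60.7 CPM in hd2b hd2c at 22 °C, against 85.6, 94.8 and 76.6 CPM in WT at 22 °C. The groups did not overlap at either temperature and were in opposite order. The interaction was 1.02 (SE 0.166, adjusted p 0.00443 by edgeR), from 0.57 after heat (adjusted p 0.0113) and −0.45 at 22 °C (adjusted p 0.0313). Its relative UPL1 had 1.00 (adjusted p 0.012) and was called after heat only.

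AT5G23110 (chromosome 5), annotated as a RING finger protein, had 24.1, 23.8 and 23.1 CPM in hd2b hd2c with heat, against 14.9, 14.4 and 12.9 CPM in WT with heat. Unheated at 22 °C, it had 21.4, 20.7 and 26 CPM in hd2b hd2c, against 28.3, 28.8 and 28.6 CPM in WT. The genotypes did not overlap at either temperature and were in opposite order, with 1.08 for the interaction (SE 0.187, adjusted p 0.00936 by edgeR) and 0.75 for the difference after heat (adjusted p 0.00417). AT1G67120 (MDN1, chromosome 1), an ATPase of large ribosomal subunit assembly, averaged 17.0 ± 2.42 CPM in hd2b hd2c and 10.8 ± 2.56 CPM in WT after heat, and 23.3 ± 2.08 CPM in hd2b hd2c and 31.9 ± 4.47 CPM in WT at 22 °C (SD, n = 3 each), an interaction of 1.11 (SE 0.238, adjusted p 0.0406). SETH5 (AT4G00800, chromosome 4) had 1.07 (SE 0.238, adjusted p 0.0499) and SNL6 (AT1G10450, chromosome 1), a relative of the Sin3 corepressor that works with histone deacetylases, had 1.44 (SE 0.317, adjusted p 0.0493). SNL6 averaged 4.71 ± 1.48 CPM in hd2b hd2c and 2.41 ± 0.615 CPM in WT after heat, and 11.6 ± 0.623 CPM in hd2b hd2c and 15 ± 2.09 CPM in WT at 22 °C.

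Of other genes of this kind, named after their values were seen, ILA, an immunity gene related to yeast GCN1, had 114, 126 and 107 CPM in hd2b hd2c with heat, against 49.0, 51.4 and 36.5 CPM in WT with heat, an interaction of 0.92 (SE 0.173). At 22 °C ILA averaged 88.8 ± 4.69 CPM in hd2b hd2c and 66.6 ± 2.82 CPM in WT. ER, the ERECTA receptor kinase gene of organ shape, had 63.4, 55.2 and 60.1 CPM in hd2b hd2c with heat, against 34.1, 33.9 and 35.8 CPM in WT with heat, an interaction of 0.76 (SE 0.152). At 22 °C ER had 66.3 ± 5.34 CPM in hd2b hd2c and 65.0 ± 3.13 CPM in WT (SD, n = 3 each). For both genes the genotypes did not overlap after heat, and for ER they did at 22 °C. DEK1, a calpain gene of the epidermis, had 0.71 and SWEETIE, of carbohydrate metabolism, had 0.95.

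AT3G23470 (chromosome 3), annotated as a cyclopropane fatty acyl phospholipid synthase, was the only called gene with 0 counts in all WT heat libraries. It had 30 counts in hd2b hd2c and 0 in WT after heat, and 548 in hd2b hd2c and 434 in WT at 22 °C. After heat it was at least 9.74-fold higher in hd2b hd2c against a floor of 3 counts over the WT group. The fitted interaction of 6.93 (SE 1.23, adjusted p 0.0149 by edgeR) depends on the prior count and is no bound. The gene overlaps AT3G23480.

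Transcript length differed between the directions. The longest annotated transcript had a median of 4505.5 nt in genes with a higher interaction (28 of 30 with a length), 1356 nt in genes with a lower one and 1727 nt in all genes tested. Transcripts over 5000 nt made up 12 of the 28 (42.9%), 0 of the 38 and 1.4% of all. UPL2, MDN1, UPL1, ILA, SWEETIE, DEK1 and AT5G23110 were among the 12, and 9 of the 12 had a genotype difference after heat only. The median interaction over all genes was higher for longer transcripts, at −0.12 for 501 to 1000 nt, −0.05 for 1001 to 2000 nt, 0.07 for 2001 to 3000 nt, 0.26 for 3001 to 5000 nt and 0.52 over 5000 nt (280 genes).

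The difference between long and short transcripts was also taken in each library. The median log2 deviation of transcripts over 5000 nt minus that of 501 to 1000 nt was −0.22, −0.62 and −0.07 in hd2b hd2c with heat, against −0.29, −0.54 and −0.74 in WT with heat. It was 0.23, 0.21 and 0.24 in hd2b hd2c at 22 °C, against 0.59, 0.68 and 0.45 in WT at 22 °C. Relative to short transcripts, long ones were lower in all 6 heated libraries than in all 6 at 22 °C, and the genotypes overlapped after heat and did not at 22 °C. With the trend removed from each library, an alternative added after the data were seen, 10 genes were called higher and 40 lower, 45 of them among the 68. AT5G23110, MDN1, SETH5, SNL6, GI and AT1G74250, all named by rule, were then not called, with 0.25, 0.22, 0.60, 1.11, 0.43 and 1.87, while the 15 named genes with a lower interaction kept their calls. Whether RNA quality or RNA processing takes part in the trend was not tested.

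**Figure D3:**
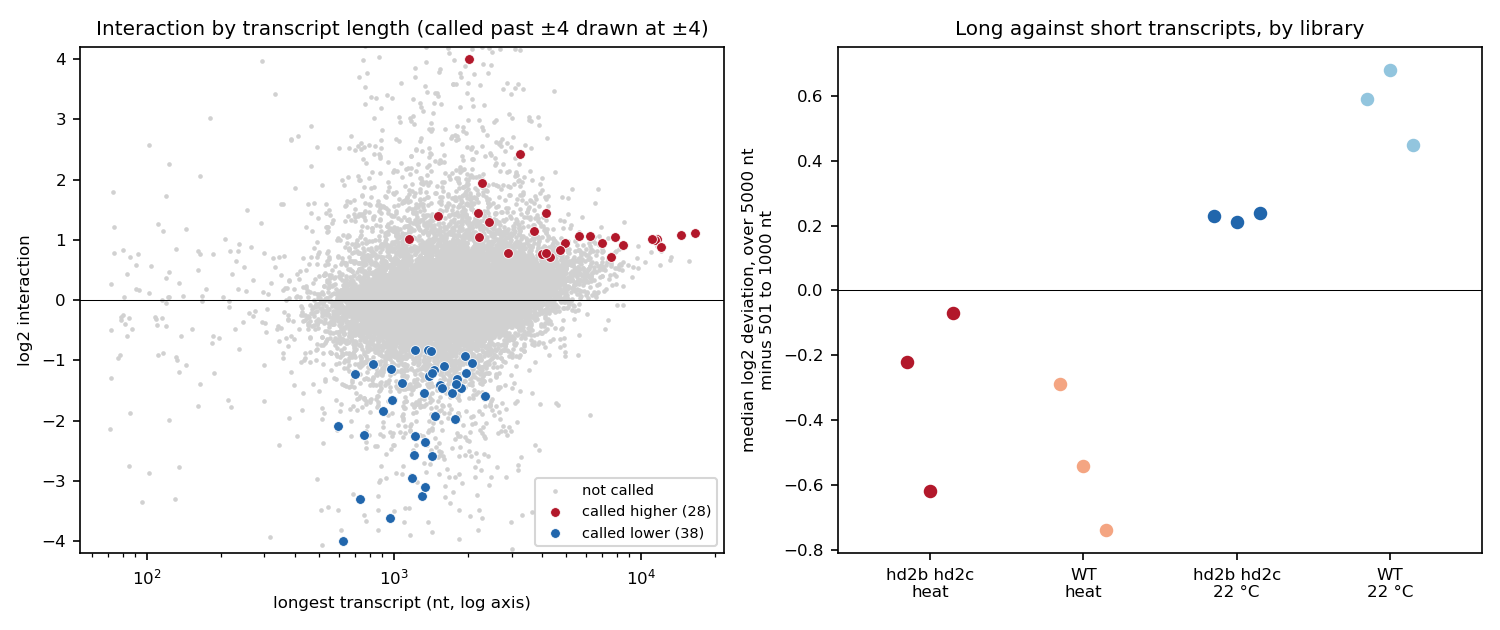
Left, log2 interaction against the length of the longest annotated transcript (log axis), with called genes in red (higher, 28 with a length) and blue (lower, 38). Right, for each library, the median log2 deviation of transcripts over 5000 nt minus that of 501 to 1000 nt, in the order hd2b hd2c heat, WT heat, hd2b hd2c 22 °C, WT 22 °C. All 12 called genes over 5000 nt are red, and WT at 22 °C has the highest values on the right (0.45 to 0.68).

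Listed chaperone genes, known for their strong rise with heat, had no call by edgeR with all 12 libraries. AT1G74250, annotated as a DNAJ protein and called higher, was outside the lists. Without the second hd2b hd2c heat library edgeR called 3 of the larger chaperones and co-chaperones higher, HSP70T-2, CLPB4 and AT5G48570, and 3 heat stress factor genes, HSFA7A, HSFA3 and HSFA2, and still 0 small heat shock protein genes. Of 17 small heat shock protein genes 0 were called by edgeR, DESeq2 or limma-voom. An unadjusted p under 0.05 was found in 1 of them, where 8.89% of all genes tested had one. The list median was −0.12, with a range of −0.99 to 0.83. The 28 genes of HSP70, HSP90, HSP100 and co-chaperones had 0 calls by any of the tools (4 higher at an unadjusted p under 0.05) and a median of 0.18. Of 21 heat stress transcription factor genes 1 was called by edgeR, HSFA7A, and 2 by DESeq2, HSFA7A and HSFA3, while limma-voom called 0, and 6 had an unadjusted p under 0.05. HSFA2 had 0.76 (adjusted p 0.483 by edgeR) and AT-HSFA7B 2.05 (adjusted p 0.478). A p that misses the threshold does not show that the genotypes responded alike.

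Of the 17 ethylene signalling genes CTR1 was called higher and ACS6 lower with all libraries, and the list median was 0.08. Of 15 auxin genes HAT2 was called lower (median −0.26). The 20 lists in which edgeR called 0 of 294 members tested include the chaperone and marker lists given above. Of their members 26 had an unadjusted p under 0.05, where 8.89% of all genes tested did. DESeq2 called 4 of the 294 and limma-voom 2. These were KIN1 of the dehydration response (−1.41, adjusted p 0.0681 by edgeR), the DNA damage kinase gene ATM (0.89, adjusted p 0.0515), and, by DESeq2 alone, the ascorbate peroxidase gene APX2 (4.74, adjusted p 0.0841) and the galactinol synthase gene GolS1 (0.67, adjusted p 0.258). RNA-directed DNA methylation (25 genes, median 0.24), DNA methylation maintenance (16, median 0.15), other histone deacetylases (12, median 0) and photosystem, antenna and Rubisco genes (27, median 0) were among these lists.

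**Figure D4:**
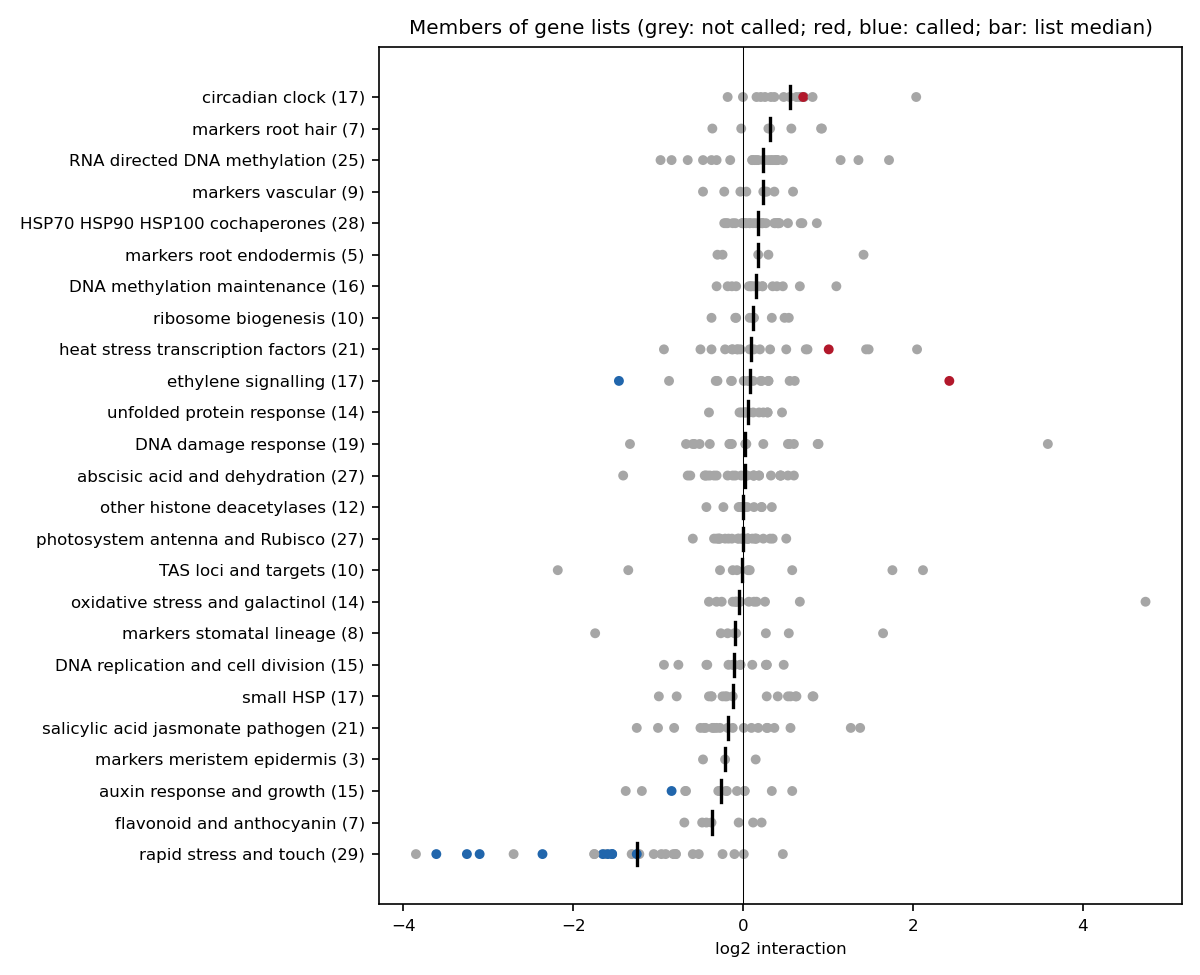
Log2 interaction of every tested member of the 25 gene lists (points; red called higher, blue called lower, grey not called) and the list median (bar), with the number tested in brackets. The rapid stress and touch list lies lowest, with a median of −1.25 and 9 called members, and the clock list highest, at 0.55.

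Without the second hd2b hd2c heat library 339 genes were called (1.64% of 20614 tested), 172 higher and 167 lower. They included 66 of the 68, but not ACS6 or SZF1. More of the 339 had a genotype difference after heat only than at 22 °C only. The lengths stayed apart, with medians of 3569 nt and 1162 nt. By edgeR, list members called without that library and not with all 12 included HSFA3 (1.65), HSFA2 (0.96), the chaperone genes HSP70T-2 (0.82), CLPB4 (0.61) and AT5G48570 (ROF2, 0.97), ATM (0.96), APX2 (4.80), KIN1 (−1.31), RD22 (−0.60), and the light-harvesting genes LHCA2 (−0.87) and LHCB4.3 (−0.92). Leaving out any other library gave 16 to 67 calls, with the lowest count without WT 22 °C replicate 2.

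**Figure D5:**
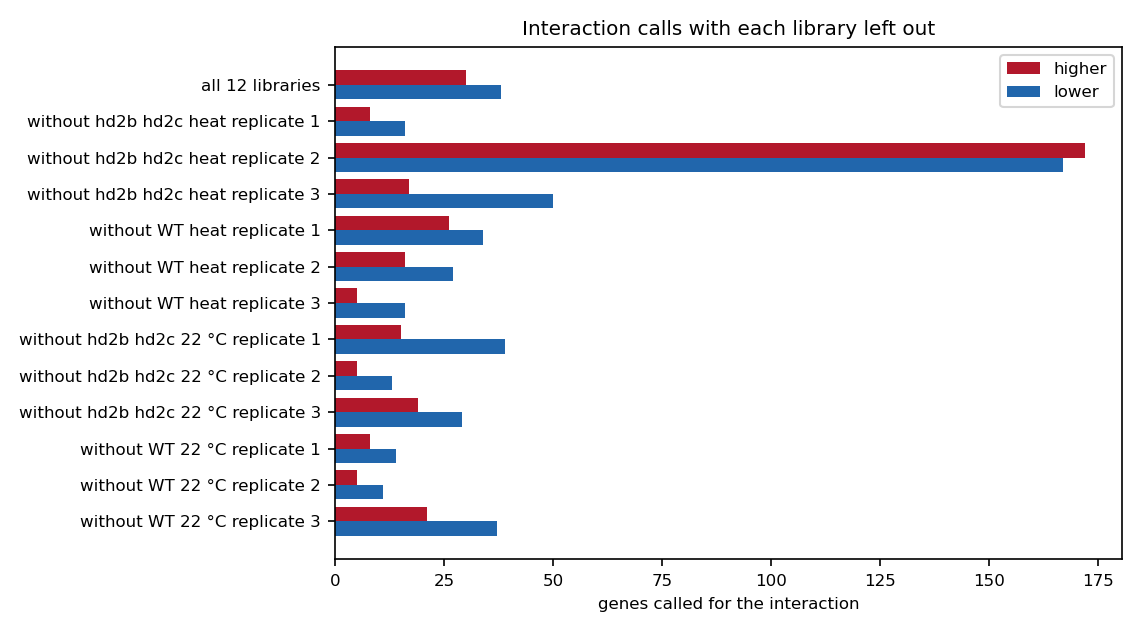
Genes called for the interaction, higher in red and lower in blue, with all 12 libraries and with each left out in turn. Counts run from 16 to 67 except without hd2b hd2c heat replicate 2, where 172 were higher and 167 lower.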

How the data were processed

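Whole seedlings were profiled by RNA sequencing in 12 libraries, 3 in each of 4 groups, from Trizol RNA and an Abclonal library kit per the labels' protocols. The authors deposited raw counts per gene. Per the submitters' processing notes the tools were HISAT2 2.1.0 and featureCounts 2.0.3 with TAIR10. For neither strand nor multiply aligned reads is the counting setting given in the sources used here. Counts between replicates differed beyond sampling noise (chi-square per gene 7.84 to 151), so no library was taken for a second sequencing of another. This cannot show whether the libraries of a group are of separate cultures.

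Of 33330 features, 20232 passed edgeR's filter (minimum count 10, minimum total 15). TMM factors and 1 robust quasi-likelihood fit of the 4 group means (edgeR 4.0.16 in R 4.3.3, common dispersion 0.0236) gave the interaction and its 2 parts, the genotype differences after heat and at 22 °C. P-values were Benjamini-Hochberg adjusted over all genes tested and called below 0.05. The SE of a log2 value is its size divided by the square root of its F statistic, and CPM values use the TMM-scaled library size. The procedure was tested on simulated data with known changes. Library size sets the precision, so that 3 counts is the floor against which a group at 0 was set, which covers counting error only.

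The genes named were the 12 largest called changes in each direction with a group mean of at least 5 CPM, HD2B, HD2C, CTR1, HSFA3, AGO4, the 3 nearest tested genes on each side of HD2B and HD2C, and up to 3 called members of each gene list by adjusted p. The members and the lists were chosen with earlier results of these data known. From the lists 4 entries were dropped because their symbol belongs to another locus. Symbols, transcript lengths and upstream windows came from RefSeq TAIR10.1, in which 14 of 66 called genes overlap another annotated gene. Alternatives were other scalings, other filters, DESeq2 1.42.0, limma-voom (limma 3.58.1), a replicate block, each library left out, and, added after the data were seen, removal of the length trend.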

Additional observations from a re-analysis of the deposited data

Results flagged for a closer look

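In each gene below the heat effect differed between the genotypes by edgeR's interaction test with all 12 libraries, and most lost the call in some alternatives. The values are log2 interactions, the change with heat in hd2b hd2c minus that in WT. The higher ones were AT3G23470 with 6.93, CTR1 with 2.43, AT2G12490.1 with 2.32, AT1G74250 with 1.94, AT4G38060 with 1.45, SNL6 with 1.44, AT3G13277 with 1.40, ASN1 with 1.30, RPP4 with 1.14, AT1G67120 (MDN1) with 1.11, AT5G23110 with 1.08, SETH5 with 1.07, HSFA7A with 1.01 and GI with 0.71. The lower ones were ERF105 (AT5G51190) with −3.61, STZ with −3.25, CAF1a with −3.10, DIC2 with −2.95, SIB1 with −2.59, AT4G27280 with −2.56, ERF6 with −2.36, AT1G72920 with −2.26, AT2G25510 with −2.24, AT5G42530 with −2.09, AT1G72910 with −1.97, WRKY70 with −1.92, ACS6 with −1.46, HD2B with −1.40 and HAT2 with −0.84. The value of AT3G23470 rests on 0 counts in heated WT libraries and is no bound.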

How the results depend on the processing

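With all settings as described, 68 genes were called, 30 higher and 38 lower, 29 of them named by rule, 41 with a genotype difference at 22 °C only and 22 after heat only. With library totals as the scale the same counts were 10, 2, 8, 10, 8 and 2, and with no filter on low counts 180, 93, 87, 28, 87 and 64. DESeq2 gave 207, 126, 81, 29, 82 and 92. With the length trend removed, an alternative chosen after the data were seen, they were 50, 10, 40, 23, 37 and 9. The share of higher calls was 44.1%, against 20% with library totals, 60.9% by DESeq2 and 20% without the length trend. Leaving out 1 library at a time gave 16 to 339 called, 5 to 172 higher, 11 to 167 lower, 11 to 28 named, 10 to 104 at 22 °C only and 4 to 172 after heat only. The total was 67 with median-ratio factors, 60 with upper-quartile factors, 61 with the stricter filter and 81 by limma-voom. The cause of these differences was not tested.

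With a replicate block the counts were 47, 15, 32, 19, 32 and 12 (31.9% higher). With 3 libraries per group, correlations cannot settle whether the replicate numbers pair the libraries. Of 18 same-numbered pairs, 3 correlated above 0.1 (range of all 18 −0.191 to 0.19). All 3 were heated against unheated libraries of the same genotype. They were hd2b hd2c replicates 2 (0.111) and 3 (0.19) and WT replicate 3 (0.103). The remaining pairs of that kind had −0.0577 (hd2b hd2c replicate 1), −0.00683 (WT replicate 1) and 0.0292 (WT replicate 2).

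All 29 named called genes kept their direction under every alternative run, and CTR1, AT5G51190, STZ, DIC2, AT4G27280, ERF6, AT2G25510 and AT5G42530 also stayed called in each. The call was kept least often by SNL6 (4 of 21 alternatives), AT1G74250, AT4G38060, MDN1 and SETH5 (8 each), and HSFA7A and GI (9 each). Of named genes not called, AT5G03750 turned to 0.85 under limma-voom and emb1211 to −0.13 without the length trend. With 1 library left out AGO4 ran from −0.04 to 0.26, ADT5 from −0.03 to 0.2, emb1211 from −0.04 to 0.14 and KDTA from −0.47 to 0.2.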

Other observations

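Other called genes, named after their values were seen, were in none of the gene lists. Among those with a lower interaction, SRC2, known as a cold-regulated gene in soybean, averaged 510 CPM in hd2b hd2c and 650 CPM in WT after heat, and 69.9 CPM in hd2b hd2c and 41.9 CPM in WT at 22 °C, with −1.09. RAV2 (TEM2), a repressor of flowering, averaged 22.2 CPM in hd2b hd2c and 31.1 CPM in WT after heat, and 34.4 CPM in hd2b hd2c and 19.6 CPM in WT at 22 °C, with −1.31. The RING finger genes ATL2 and RDUF1 had −1.45 and −1.20, and NHL3, a defence gene of the cell membrane, had −1.14. All 5 had a called genotype difference at 22 °C only.

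With a higher interaction, AT5G47480 (MAG5), of protein export from the endoplasmic reticulum, averaged 34.1 CPM in hd2b hd2c and 19.5 CPM in WT after heat, and 38.5 CPM in hd2b hd2c and 41.3 CPM in WT at 22 °C, with 0.95. AT5G24740 (SHRUBBY) and AT2G17930, both among the 12 called genes with transcripts over 5000 nt, had 1.01 and 0.89. These 3 fell with heat in WT, were not called for heat in hd2b hd2c, and differed between genotypes after heat only. AT3G08960, by contrast, averaged 94.5 CPM in hd2b hd2c and 51.5 CPM in WT after heat, and 24.1 CPM in hd2b hd2c and 22.4 CPM in WT at 22 °C, with 0.78.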
